A study of Homo sapiens with 3 samples.

Results

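Ribosome footprints of H1299 cells were compared gene by gene with those of HBE cells. H1299 is a line of human non-small cell lung carcinoma, known for an activating mutation of NRAS and a lack of the chromatin remodeler SMARCA4, and HBE is a line of human bronchial epithelium that stands for the normal airway. Both were grown under normal conditions in complete DMEM, with no agent or genetic change added by the study, and each line gave 1 footprint library, so the comparison is between 2 libraries and had no replicate check. The series also holds a library of A549 cells, which was not used here. The reads of all transcripts that carry a gene name were added up for the 19267 names with at least 1 protein-coding (NM) transcript, and divided by the reads of the library on NM transcripts. A gene was compared when it had at least 20 reads over both libraries, which 18648 genes did and 619 did not.

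A ribosome covers a short stretch of the mRNA that it translates, and ribosome profiling sequences the stretches that survive a nuclease. The number of footprints on a gene therefore follows both the amount of its mRNA and the density of ribosomes on it, and the ratio between lines cannot tell these apart. Airway epithelial cells hold together through cadherins, desmosomes and tight junctions and carry keratins in their cytoskeleton. Cells that have left the epithelial state lose much of this and take up vimentin and N-cadherin instead, a passage known as epithelial-mesenchymal transition (EMT) in which TWIST, SNAI and ZEB transcription factors take part.

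The H1299 library held 35751992 mapped reads and the HBE library 43580281, of which 79.7% and 79.2% lay on NM transcripts in H1299 and HBE. The 10 NM transcripts with most reads took 31.4% of the NM reads in H1299 and 38.9% in HBE. The median gene had 728 reads over both libraries. On this scale the median gene had a ratio of 1.298, a log2 ratio of 0.38, and 15382 genes (82.5%) lay within 2-fold of it. The middle of the distribution thus stood above equality, so list medians are given below as their distance from the median gene, on the log2 scale. A gene was called higher or lower in H1299 when the ratio was at least 4 in that direction and its exact 95% counting interval (Clopper-Pearson) lay wholly beyond 2. By this rule 427 genes (2.29% of those compared) rose and 449 genes (2.41%) fell in H1299. With the TMM factors of edgeR, which put the median gene at 0.014, the counts were 266 and 613, so that the higher genes made up 30.3% of all called genes on that scale and 48.7% on the scale of NM reads. The intervals cover counting error only, since amplified reads are not independent molecules, and say nothing of the spread between cultures.

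**Figure D1:**
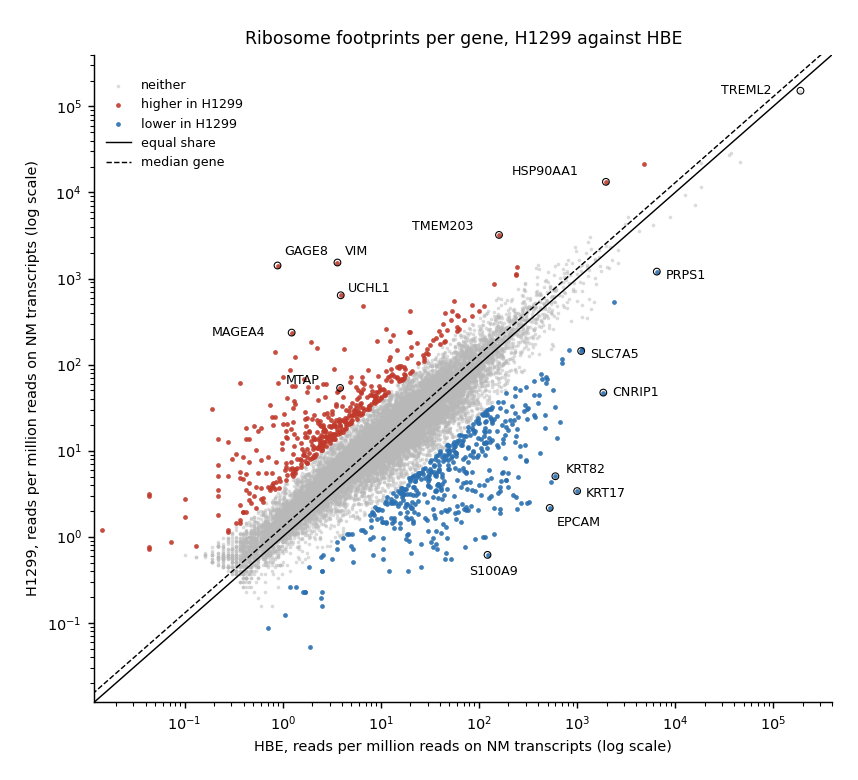
Share of NM reads of each gene, scaled to a common total, in H1299 (vertical axis) and HBE (horizontal axis), both on log scales with 0.5 read added. Red and blue points are genes called higher and lower in H1299, the solid line marks equal shares and the dashed line the median gene at a ratio of 1.298; genes of the Y chromosome are not drawn. GAGE8, VIM, UCHL1 and MAGEA4 stand far above the lines, and KRT17, EPCAM and S100A9 far below.

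Genes that the labels bear on were looked at first. SMARCA4, a motor subunit of the SWI/SNF complex, had 1038 reads in H1299 and 3397 in HBE, 2.70-fold fewer (2.52 to 2.90), while its relative SMARCA2 had 849 and 1306. The most read transcript of SMARCA4 stood at 5.24 RPKM in H1299 and 14.2 RPKM in HBE. The H1299 value lay just under 5.28 RPKM, the bound below which 95% of olfactory receptors lay in H1299, as given below. NRAS had 1013 reads in H1299 and 512 in HBE, a ratio of 2.40 (2.15 to 2.67). Of the genes of chromosome 9p21, which are lost together in many tumours, CDKN2A (680 reads in H1299, 147 in HBE) and MTAP (1525 in H1299, 132 in HBE) both rose in H1299, by 5.60-fold (4.68 to 6.75) and 13.998-fold (11.7 to 16.9). The other 4 of the 6 genes compared at this locus were not called. In HBE the most read transcripts of CDKN2A and MTAP stood at 1.47 and 0.614 RPKM. Both values lay within the range of stray reads on olfactory receptors in HBE, given below, so the 2 ratios rest on a low level in HBE.

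Markers of hepatocytes, leukocytes, endothelial and ciliated cells stayed near the middle of the distribution. None of the 13 hepatocyte, 17 leukocyte, 10 endothelial and 11 ciliated cell genes compared was called in either direction, and their medians lay between 0.24 below and 0.12 above the median gene on the log2 scale. In all 51 of them the H1299 counts ranged between 6 and 4793 reads and the HBE counts between 11 and 4361. Secretory and alveolar genes went further: of 23 compared 3 fell, 6 with TMM scaling, and none rose. Their median lay 0.23 below the median gene. The lowest ratio among them was that of LCN2, with 30 reads in H1299 and 4954 in HBE, 136-fold fewer (95.3 to 202). Neural and neuroendocrine genes are given below. Olfactory receptors, which serve smell and are not expected in airway cells, give the level of stray reads: the 320 receptors compared had a median of 28 reads in H1299 and 24 in HBE, and 95% of them lay below 5.28 RPKM in H1299 and 3.87 RPKM in HBE.

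Of 16 genes of epithelial adhesion and polarity, 12 fell in H1299 and none rose, with a median log2 ratio of -3.73, which is 4.10 below the median gene. The adhesion molecule EPCAM had 61 reads in H1299 and 18183 in HBE, 246-fold fewer (191 to 322). The E-cadherin gene CDH1, whose product joins neighbouring epithelial cells, had 85 reads in H1299 and 4587 in HBE, 44.5-fold fewer (35.9 to 55.9). At 0.494 RPKM in H1299, CDH1 lay within the range of the olfactory receptors, against 21.9 RPKM in HBE. P-cadherin (CDH3) followed with 138 reads in H1299 and 4607 in HBE. RAB25, a small GTPase of apical recycling, had 20 and 1281 reads in H1299 and HBE. The protease matriptase (ST14, 255 reads in H1299 and 3990 in HBE) and its inhibitor SPINT2 (139 and 8674) both fell, by 12.9-fold and 51.5-fold. The protease PRSS8 (4592 reads in H1299, 4580 in HBE) and the inhibitor SPINT1 (4411 and 7545) of the same list were not called, at ratios of 1.21 and 0.708.

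**Figure D2:**
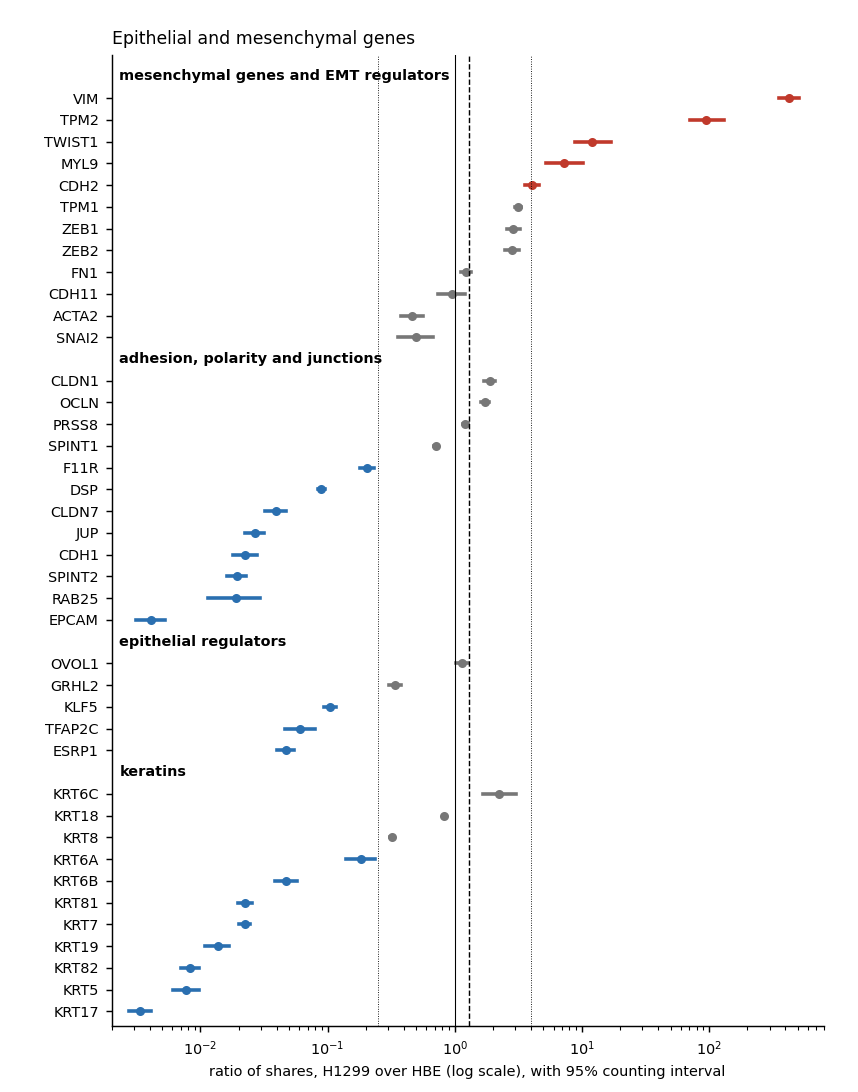
Ratio of shares, H1299 over HBE, on a log axis for chosen genes in 4 groups. Points are ratios and bars their 95% counting intervals, red for genes called higher in H1299, blue for lower and gray for neither; the solid line marks 1, the dashed line the median gene and the dotted lines the 4-fold bounds. VIM stands at 427 and KRT17 at 0.00336, while OCLN and CLDN1 lie close to the median gene.

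Not all junctions took part equally. In the desmosome, which anchors keratin filaments at cell contacts, 6 of 15 genes fell and none rose, and the list median lay 1.999 below the median gene. The plaque proteins plakoglobin (JUP, 127 reads in H1299 and 5758 in HBE), plakophilin 3 (PKP3, 162 and 2906) and desmoplakin (DSP, 1008 and 13680) fell by 37.4-fold, 14.8-fold and 11.2-fold. Tight junction genes, in contrast, had their median 0.01 below the median gene on the log2 scale, and 3 of 25 fell. These were CLDN7 (112 reads in H1299, 3476 in HBE), CLDN4 (177 and 1957) and F11R (291 and 1709), a membrane protein of the junction. Occludin (OCLN, 1785 reads in H1299 and 1253 in HBE), CLDN1 (954 and 612) and the scaffold TJP1 (2200 and 2419) had ratios of 1.73, 1.89 and 1.10. The 16 claudins of the list had 20 to 1773 reads in H1299 and 22 to 3476 in HBE, so weakly covered members enter its median. With a minimum of 100 reads the median log2 ratio of tight junction genes was 0.51, against 0.37 with the minimum of 20. The difference between the junction lists has no replicate check, and how far it follows the coverage of members was not tested.

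Transcription and splicing factors that keep the epithelial state were lower in 5 of 12 cases and higher in none, with a median 1.74 below the median gene. The splicing regulators ESRP1 (168 reads in H1299, 4333 in HBE) and ESRP2 (102 and 607) fell by 21.3-fold and 4.91-fold, and TFAP2C (60 and 1186) and KLF5 (348 and 4051) by 16.3-fold and 9.61-fold. GRHL2, which maintains junction genes, had 429 reads in H1299 and 1527 in HBE, a ratio of 0.340 that was not called.

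To look for a sequence shared by epithelial genes, the 250 bases before the RefSeq transcript starts were searched for CACCTG and its reverse complement CAGGTG, the E-box that ZEB and SNAI repressors are known to bind. These 6 letters were found in 17.5% of all 35116 upstream windows. Windows were at hand for 6 of the 16 adhesion and polarity genes, and 5 of their 8 windows held the motif. It stood in 10 of 21 windows of the S100 genes, 5 of 16 of the basal list, 5 of 14 of the desmosome, 6 of 29 of tight junctions, 1 of 7 of the epithelial regulators and 0 of 2 of the simple keratins. Lists with few or no lower calls also reached high shares, with 12 of 26 windows for secretory and alveolar genes and 5 of 14 for leukocyte genes. The window of CRB3, a polarity gene with 61 reads in H1299 and 706 in HBE (9.55-fold fewer, 7.35 to 12.6), held 5 copies, as many as in 0.0740% of all windows or more, and is shown because no other window of this list held more. The window of S100A9, 1 of the most strongly reduced genes, held 1 copy. Matches are a description of the letters and not of binding, and the 2 windows are given 5′ to 3′ with the motif in capitals (GRCh38.p14, chr19:6464021-6464270, plus strand, and chr1:153357604-153357853, plus strand).
CRB3: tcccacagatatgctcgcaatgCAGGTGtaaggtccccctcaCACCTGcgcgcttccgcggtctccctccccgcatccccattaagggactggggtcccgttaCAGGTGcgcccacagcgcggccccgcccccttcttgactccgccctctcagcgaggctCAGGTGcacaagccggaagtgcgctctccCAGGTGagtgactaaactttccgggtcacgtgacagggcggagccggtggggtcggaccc
S100A9: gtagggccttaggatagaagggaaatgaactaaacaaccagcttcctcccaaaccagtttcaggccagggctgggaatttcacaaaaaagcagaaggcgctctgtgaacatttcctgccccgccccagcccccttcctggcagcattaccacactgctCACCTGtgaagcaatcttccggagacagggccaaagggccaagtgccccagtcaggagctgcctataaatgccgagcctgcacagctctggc

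Keratins split into those that fell and those that were not called. Of 8 basal keratins 5 fell, and of 8 keratins of simple epithelia and related types 4 fell, with none higher in either list and medians 2.99 and 2.71 below the median gene. KRT17, the gene with the smallest ratio of all, had 96 reads in H1299 and 34593 in HBE, 297-fold fewer (243 to 367). KRT5, the marker of basal cells, had 72 reads in H1299 and 11262 in HBE, 129-fold fewer. Among simple keratins KRT19 (87 reads in H1299, 7730 in HBE) and KRT7 (402 and 21801) fell by 73.3-fold and 44.8-fold. KRT18 (30113 reads in H1299, 44285 in HBE) and its partner KRT8 (10116 and 38389) remained among the well covered genes of both lines, at 567 and 156 RPKM in H1299 against 684 and 487 RPKM in HBE. KRT8 was called lower with TMM scaling and with the median gene set to 0. KRT82, known as a keratin of hair, had 143 reads in H1299 and 20756 in HBE, and KRT81, another hair keratin, had 265 and 14312.

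The KRT6 copies show how far near-identical genes can be told apart. KRT6A had 69 reads in H1299 and 457 in HBE, KRT6B had 101 and 2594, and KRT6C had 133 and 72. The first 2 thus fell in H1299, by 5.47-fold and 21.2-fold, and KRT6C had a ratio of 2.24 (1.67 to 3.02). Their coding regions are 97.5% to 98.5% identical over 1692 bases, and the first 60 coding bases, shown because they are the same in the 3 genes, cannot assign a footprint to any of them (hg19 with GENCODE, minus strand, KRT6A at chr12:52886913-52886972, KRT6B at chr12:52845803-52845862, KRT6C at chr12:52867462-52867521). The reads of the 3 genes are therefore uncertain as single values.
KRT6A, KRT6B and KRT6C: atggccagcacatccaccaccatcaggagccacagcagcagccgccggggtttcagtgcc

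Of 13 other genes of the basal layer 7 fell and none rose, with a median 2.40 below the median gene. TP63, the transcription factor of basal cells, had 107 reads in H1299 and 2265 in HBE, 17.5-fold fewer (14.4 to 21.4). TRIM29 (59 reads in H1299, 2455 in HBE), the hemidesmosome integrin ITGB4 (427 and 6303) and the collagen COL17A1 (343 and 3198) fell by 34.3-fold, 12.2-fold and 7.70-fold. ITGA6, the partner of ITGB4, had 15611 reads in H1299 and 9977 in HBE, a ratio of 1.90, and was not called. A separate list of 18 integrins held neither ITGB4 nor ITGA6. In it 1 rose and 1 fell, both of them α chains, with a median 0.31 below the median gene. ITGA4, an α chain best known from leukocytes, rose 14.4-fold (2041 reads in H1299, 172 in HBE). Of 8 laminins, with a median 1.12 below the median gene, LAMA5 and LAMB1 fell by 10.2-fold and 5.51-fold. LAMC3 (664 reads in H1299, 195 in HBE) rose 4.13-fold, a call lost with TMM scaling.

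S100 proteins, small calcium-binding proteins of which many mark squamous and inflamed epithelium, had a median 5.43 below the median gene, the lowest of the 53 lists. With 5 reads added to each count in place of 0.5, their median log2 ratio was -3.27 instead of -5.06, and that of adhesion and polarity, at -3.68, was lower. Of 15 genes 8 fell and none rose. S100A9 had 17 reads in H1299 and 4219 in HBE, 205-fold fewer (128 to 352), and S100A2 had 123 and 18545, 124-fold fewer (104 to 149.8). S100A8, S100P, S100A6, S100A16, S100A14 and S100A7 followed, each at least 33.5-fold lower. S100A7 had 1 read in H1299 and 65 in HBE, and its ratio is correspondingly uncertain (53.6-fold fewer, 9.30 to 2151). S100A10, S100A11 and S100A13 had ratios between 0.467 and 1.65.

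Of 12 inhibitors of proteases 7 fell and none rose, with a median 3.74 below the median gene, and of 19 proteases and receptors of the urokinase system and the matrix 3 rose and none fell, with a median 0.05 above it. The inhibitors that fell included SERPINB4 (70 reads in H1299, 10720 in HBE), SERPINB3 (28 and 3765), SERPINB5 (107 and 5717), SLPI (27 and 1616) and SERPINB1 (328 and 10060). The urokinase PLAU (5330 reads in H1299, 312 in HBE) and its receptor PLAUR (6857 and 690) rose by 20.7-fold (18.5 to 23.3) and 12.0-fold (11.1 to 13.04). The collagenase MMP1 (273 and 56 reads in H1299 and HBE) rose 5.91-fold, and the other 16 proteases of the list were not called. SERPINB3 and SERPINB4 share 95.2% of their 1170 coding bases and 43.8% and 43.2% of their 28-base words with other genes. Their first 60 coding bases differ at 1 position, in capitals, and are shown because a footprint that does not cover it fits both genes (hg19, minus strand, chr18:61328391-61328450 and chr18:61310752-61310811).
SERPINB3: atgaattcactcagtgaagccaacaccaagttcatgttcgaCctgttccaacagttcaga
SERPINB4: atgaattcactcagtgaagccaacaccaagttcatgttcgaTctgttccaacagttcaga

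On the mesenchymal side the change was carried by few genes. VIM, which encodes the intermediate filament vimentin, had 43694 reads in H1299 and 124 in HBE, a ratio of 427 (358 to 513), and at 568 RPKM in H1299 it matched KRT18 in the same library, against 1.32 RPKM in HBE. The tropomyosin TPM2 had 3532 reads in H1299 and 45 in HBE, a ratio of 95.1 (70.9 to 131), and the myosin light chain MYL9 had 258 and 43. N-cadherin (CDH2) had 1064 reads in H1299 and 316 in HBE, a ratio of 4.08 (3.59 to 4.64) that TMM scaling no longer called. In all 4 of 21 mesenchymal genes rose and 1, the fibroblast protease FAP (92 reads in H1299, 818 in HBE), fell. The list median lay 0.16 below the median gene, and above 0 on the scale of NM reads. Fibronectin (FN1, 918 and 905 reads in H1299 and HBE), SPARC (115 and 205), ACTA2 (132 and 346) and TAGLN (155 and 208) had ratios between 0.462 and 1.23.

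Of 9 EMT regulators, with a median 0.73 above the median gene, TWIST1 alone was called: it had 440 reads in H1299 and 44 in HBE, a ratio of 12.1 (8.88 to 16.9). ZEB1 (992 reads in H1299, 415 in HBE) and ZEB2 (757 and 324) had ratios of 2.90 and 2.83. SNAI1 had 223 and 125 reads in H1299 and HBE, and SNAI2 had 57 and 139. The order of these ratios was TWIST1, ZEB1, ZEB2, SNAI1 and SNAI2. The intervals of ZEB1, ZEB2 and SNAI1 overlapped with each other, and those of TWIST1 and SNAI2 overlapped with no other.

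Of 17 genes that answer to TGF-β and to the mechanical regulators YAP and TAZ, 5 rose, 1 fell and 11 were not called, with a median 0.38 above the median gene. CTGF, a matricellular protein, had 1584 reads in H1299 and 42 in HBE, a ratio of 45.7 (33.6 to 63.7). The muscle ankyrin repeat protein ANKRD1 (348 reads in H1299, 33 in HBE) rose 12.8-fold (8.93 to 18.9). CYR61 (7753 and 2064) and the receptor kinase AXL (9427 and 2422) rose by 4.55-fold and 4.72-fold, calls that were lost with TMM scaling. TGFBI, an adhesive matrix protein, went the other way, with 659 reads in H1299 and 10768 in HBE, 13.5-fold fewer (12.5 to 14.6).

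**Figure D3:**
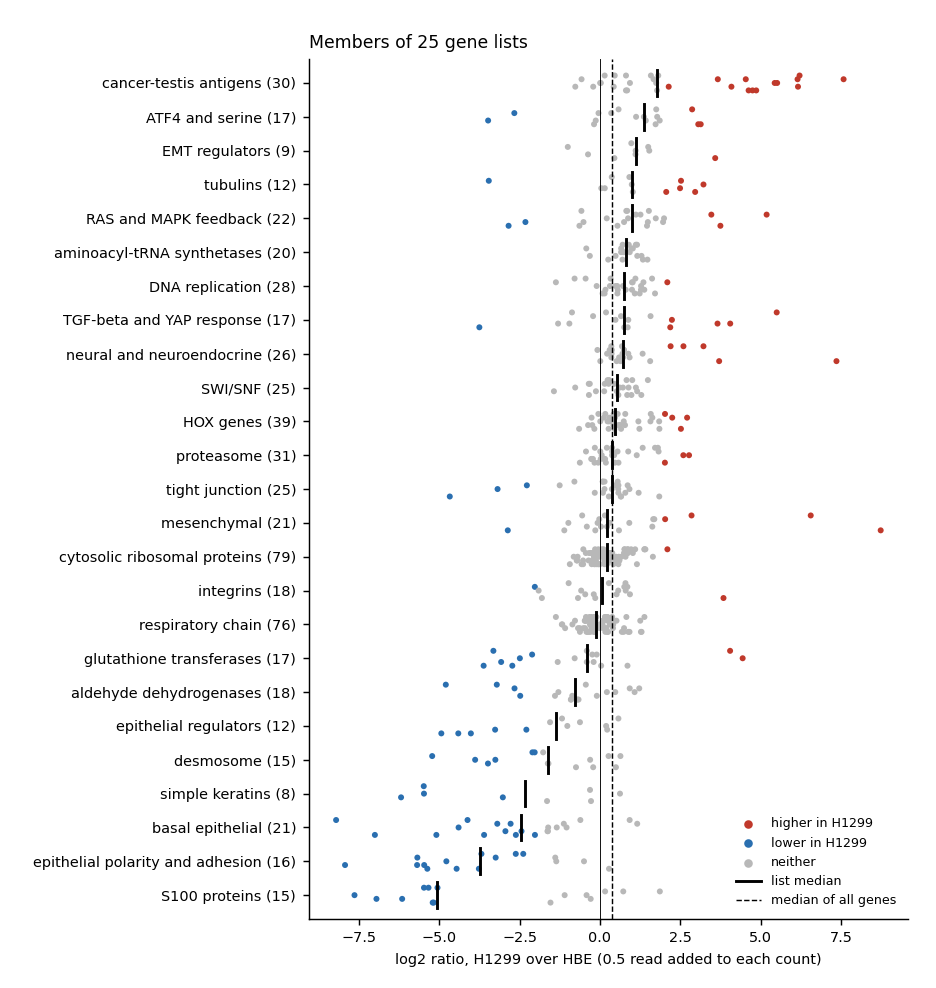
Log2 ratio, H1299 over HBE, of each compared member of 25 gene lists, with 0.5 read added to each count; the number of members stands in brackets. Red and blue points are members called higher and lower in H1299, gray points neither, thick black bars the list medians and the dashed line the median of all genes, 0.38. Cancer-testis antigens lie highest by median and S100 proteins lowest, a lowest place that adhesion and polarity genes take when 5 reads are added, and ribosomal proteins and the respiratory chain form narrow groups near the dashed line.

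Cancer-testis antigens, genes that are normally read in germ cells and are silent in most other tissues, gave the largest ratios of the whole comparison. Of 30 listed genes that were compared 13 rose and none fell, and the median lay 1.39 above the median gene; 6 further listed genes were not compared, and PAGE2 lost its call with TMM scaling. GAGE8, XAGE1C, TDRD12 and RHOXF2 are not on that list and were named for their ratios. GAGE8 had 40348 reads in H1299 and 30 in HBE, a ratio of 1629.6 (1141 to 2416), and its level was 2137 RPKM in H1299 against 1.304 RPKM in HBE. In the MAGE A family 7 of the 9 compared rose, with 11 listed. They were led by MAGEA4 with 6702 reads in H1299 and 42 in HBE, a ratio of 193 (143 to 269). MAGEA8 (292 and 103 reads in H1299 and HBE) and MAGEA11 (172 and 59) were the 2 that were not called, at ratios of 3.43 and 3.53. XAGE1C (13535 and 225), PRAME (4470 and 76) and CTAG1A (1066 and 44) rose by 72.9-fold, 71.3-fold and 29.4-fold. TDRD12, a germ line gene of the piRNA pathway, had 5259 reads in H1299 and 66 in HBE, and the homeobox gene RHOXF2 of the reproductive tract had 4021 and 28. MAGEC1 (68 reads in H1299, 123 in HBE), MAGEC2 (84 and 74) and MAGEB1 (70 and 145) showed no such ratio.

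Many of these genes are copies of each other, which limits single values. Of the 75 genes named by rule, 68 were found by name in GENCODE, and 6 of them shared more than 50% of their 28-base words with other protein-coding genes. These were XAGE1C and CT45A3 (100% each), GAGE2A (94.7%), MAGEA6 (77.8%), MAGEA3 (64.2%) and GAGE10 (51.7%). GAGE8, GAGE6 and GAGE7 were not among the names found. Outside these 75 genes, CTAG1A (99.0%), AREG (95.6%) and KRT81 (51.1%) also shared more than 50%, so their single values have the same limit. MAGEA4 (5.67%), PRAME (0.796%), UCHL1 (0%) and VIM (0.4497%) shared few or none. This count covers exact matches to protein-coding transcripts only, so it cannot exclude reads from similar but not identical copies. MAGEA3 (357 reads in H1299, 9 in HBE) and MAGEA6 (2471 and 40) are 98.1% identical over 942 coding bases, and their first 60, the same in both, are shown as the reason why the split of reads between them is uncertain (hg19, MAGEA3 at chrX:151936107-151936166 and MAGEA6 at chrX:151869311-151869370).
MAGEA3 and MAGEA6: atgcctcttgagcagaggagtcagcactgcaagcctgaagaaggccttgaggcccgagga

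Of 26 neural and neuroendocrine genes 5 rose and none fell, with a median 0.33 above the median gene. The ubiquitin hydrolase UCHL1, abundant in neurons, had 18188 reads in H1299 and 134 in HBE, a ratio of 164 (139 to 196). The intermediate filaments INA (1783 reads in H1299, 165 in HBE) and NEFH (571 and 114), the tubulin TUBB3 (3247 and 422) and DPYSL3 (1129 and 298) were the others that rose, of which DPYSL3 was not called with TMM scaling. INSM1 (87 reads in H1299, 64 in HBE), CHGA (195 and 185) and SYP (175 and 115), markers of neuroendocrine cells, had ratios near that of the median gene.

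Within the tubulins, the subunits of microtubules, 5 of 12 genes rose and 1 fell, with a median 0.63 above the median gene. TUBB3, TUBB6 (4525 reads in H1299, 704 in HBE), TUBB4A (608 and 128), TUBB2B (1013 and 218) and TUBB2A (1833 and 532) rose by 9.32-fold, 7.79-fold, 5.76-fold, 5.63-fold and 4.17-fold, the last of which TMM scaling no longer called. TUBB (41495 and 26672), TUBA1C (27158 and 16577) and TUBB4B (10080 and 9478) had ratios of 1.88, 1.98 and 1.29. TUBA4A fell, with 179 reads in H1299 and 2392 in HBE. TUBB2A and TUBB2B share 63.5% and 53.2% of their 28-base words with other genes and TUBB3 53.7%, whereas TUBB6 shares 4.63%.

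Targets and dampers of RAS-MAPK signalling were unevenly changed. FOSL1, a transcription factor of the AP-1 family, had 4334 reads in H1299 and 144 in HBE, a ratio of 36.5 (30.9 to 43.4). The feedback inhibitors SPRY2 (1356 reads in H1299, 122 in HBE) and DUSP6 (2035 and 223) rose by 13.5-fold and 11.1-fold. DUSP4 (280 and 1696) and IER3 (193 and 1682), also counted as targets, fell by 4.999-fold and 7.19-fold. Of the 16 feedback genes 13 lay above the median gene and 3 below, with a median 0.93 above it, and the 6 RAS genes themselves had no call.

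Of 16 cytokines 6 fell, none rose and 10 were not called, with a median 1.04 below the median gene. IL1B had 26 reads in H1299 and 3161 in HBE, 100.3-fold fewer (68.4 to 154), and IL1A had 158 and 6834, 35.7-fold fewer. IL18 (55 reads in H1299, 1408 in HBE), IL6 (15 and 363) and IL8 (20 and 363) fell by 21.1-fold, 19.97-fold and 15.0-fold. IL8, also named CXCL8, is a chemokine but was counted with the cytokines and not with the 13 chemokines. Of 13 chemokines 2 rose and 2 fell, with a median 0.13 above the median gene. CXCL2 rose 9.91-fold (785 and 96) and CCL28, with 41 and 11 reads, 4.52-fold, a call lost with TMM scaling, and CXCL16 (159 reads in H1299, 1131 in HBE) and CCL20 (11 and 86) fell. Of 41 growth factor receptors and ligands 7 fell, none rose and 34 were not called, with a median 0.63 below the median gene and 12 lower calls with TMM scaling. Those that fell included the EGF receptor ligand amphiregulin (AREG, 31 reads in H1299 and 1419 in HBE) and the IGF-binding protein IGFBP7 (87 and 3644). Of 37 interferon-stimulated genes 1 rose, 5 fell and 31 were not called, with a median 0.43 below the median gene. The antiviral membrane proteins IFITM1, IFITM2 and IFITM3 fell by 7.77-fold, 9.97-fold and 10.1-fold, and ISG15, a ubiquitin-like interferon product, rose 8.81-fold (1454 and 200). The IFITM genes share 21.5% to 31.3% of their 28-base words with other genes, so the split of reads among them is uncertain.

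Of 17 genes of the ATF4 response and serine synthesis 3 rose and 2 fell, with a median 0.99 above the median gene. Asparagine synthetase (ASNS, 11193 reads in H1299 and 1545 in HBE), the stress factor DDIT3 (752 and 109) and CHAC1 (466 and 77), which degrades glutathione, rose by 8.78-fold, 8.36-fold and 7.33-fold. DDIT4, an inhibitor of mTOR, fell to 1440 reads in H1299, against 19474 in HBE, 11.2-fold fewer (10.6 to 11.8), and CEBPB fell by 6.35-fold. The 20 aminoacyl-tRNA synthetases, which load tRNAs, had no call, and 17 of them lay above the median gene, with a median 0.44 above it. SLC7A5 and SLC3A2, the 2 chains of the large neutral amino acid transporter LAT1, fell together: 4092 reads in H1299 and 38015 in HBE for SLC7A5, 7.67-fold fewer (7.42 to 7.92), and 15073 and 81739 for SLC3A2, 4.48-fold fewer (4.40 to 4.55). The glutamate transporter SLC1A3 (129 and 2041) was the third of 16 amino acid transporters that fell, a list with its median 0.03 below the median gene.

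Glutathione transferases, which couple glutathione to foreign compounds, had 2 genes higher and 6 lower of 17, with a median 0.79 below the median gene. MGST2, MGST1, GSTT1, GSTP1, GSTT2 and GSTK1 fell by 4.32-fold to 12.4-fold, whereas GSTA4 (241 reads in H1299, 13 in HBE) and GSTM2 (211 and 15) rose by 22.5-fold and 17.0-fold. Of 18 aldehyde dehydrogenases 4 fell and none rose, with a median 1.16 below the median gene, led by ALDH1A3, which makes retinoic acid, with 68 reads in H1299 and 2306 in HBE, 27.99-fold fewer (22.0 to 36.2). ALDH1L2, a mitochondrial folate enzyme with the most reads of the family, had 14721 reads in H1299 and 12829 in HBE, a ratio of 1.39. The ferritin heavy chain FTH1, which stores iron, fell by 6.75-fold (2040 and 16672).

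Machinery that every cell needs changed little, with single exceptions. The 79 cytosolic ribosomal proteins had a median 0.16 below the median gene and 1 call, RPS20, which TMM scaling lost. The 76 respiratory chain genes had a median 0.50 below the median gene and no call, with 61 of 76 below it. The 28 DNA replication and 28 mitosis genes lay 0.38 and 0.32 above the median gene by median, with 1 call each, MCM4 and NDC80, both lost with TMM scaling. Of 40 translation factors 1 rose, EEF1A2, the elongation factor of muscle and neurons, with 2545 reads in H1299 and 115 in HBE, a ratio of 26.8 (22.2 to 32.6), beside 149625 and 115095 reads for EEF1A1, its form in other tissues. HSP90AA1, the inducible cytosolic HSP90, had 378467 reads in H1299 and 67949 in HBE, a ratio of 6.75 (6.69 to 6.80), and was among the 10 genes with most reads in H1299. The chaperonin subunit TCP1 rose 5.72-fold (13942 and 2954), and the median of its 9-member list, 0.27 above the median gene, did not follow it.

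HOX genes, which set position along the body axis, were called in 4 of 39 cases, all higher. In the HOXB cluster 3 of 10 rose (HOXB2, HOXB4 and HOXB7) and the median lay 1.01 above the median gene. In HOXA, HOXC and HOXD 1 of 29 was called, HOXA7, and the cluster medians lay between 0.11 below and 0.22 above the median gene. The HOXB genes had 24 to 382 reads in H1299 and 21 to 202 in HBE, so they were weakly covered in both lines. HOXB7 and HOXA7 lost their calls with TMM scaling.

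The middle of the ratio range held most genes. The ratio was between 1 and 2 in 10656 genes (57.1%) and between 0.5 and 1 in 4039 (21.7%). It was between 2 and 4 in 2320 and between 0.25 and 0.5 in 745 genes. At least 4 was reached by 437 genes, and 451 were under 0.25. Among the most read genes of the upper bands were NPM1 (66721 reads in H1299, 32515 in HBE), a nucleolar chaperone, ACTG1 (59233 and 34043) and HSPA8 (46588 and 27661). Among those of the lower bands were CTNNB1 (12515 reads in H1299, 47964 in HBE), the β-catenin that links cadherins to actin, and the kinase STK24 (16261 and 45340). PRPS1, an enzyme of nucleotide synthesis, had 34260 reads in H1299 and 224566 in HBE, 5.41-fold fewer (5.35 to 5.47), and CNRIP1 had 1345 and 63927. ARIH2, a ubiquitin ligase at 4133 RPKM in H1299 and 939 RPKM in HBE, and TMEM203, at 1623 RPKM in H1299 and 80.4 RPKM in HBE, were the most read genes of the upper end beside HSP90AA1. The call of ARIH2 was lost with TMM scaling, and CTNNB1 was called lower there. Where along the transcripts of TREML2, CCDC170, ARIH2, TMEM203, PRPS1 and CNRIP1 the reads lay was not analysed here. Reads piled at 1 place therefore cannot be told apart from reads along the frame.

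Genes were also laid out by their position on the genome, which the comparison did not use. Chromosome 19 had the highest median of all chromosomes, 0.18 above the median gene, and 73 of its 1346 genes (5.42%) rose. Chromosome 11 had the lowest, 0.25 below, with 19 higher and 38 lower of 1215. On the X chromosome 39 of 747 genes (5.22%) rose, the cancer-testis genes among them. When a median was run over 25 neighbouring genes with at least 100 reads each, a choice made after these values had been seen, the longest stretch above the median gene lay on the long arm of chromosome 19. This stretch, APLP1 to KCNK6 (hg19, starts between 36359401 and 38810484), held 52 genes with a median 1.08 above the median gene, and 46 of the 52 lay above it. A stretch of 9 genes on chromosome 8, YTHDF3 to RRS1, had a median 1.32 above the median gene.

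From the first to the last of the longer stretches, NUDT19 to CEACAM19 (starts between 33182867 and 45174724), 293 genes were compared, of which 45 (15.4%) rose and 5 (1.71%) fell, and 229 lay above the median gene. With TMM scaling 24 were higher and 6 lower. The ends of the stretch were set from these same ratios, so its counts are a description and are not compared with the rest of the chromosome. Zinc finger genes are dense there. The 63 with names in ZNF or ZFP had a median log2 ratio of 1.47, a value that the chosen ends enter as well. Of these 63 genes 18 rose, 13 with TMM scaling. The 282 genes with such names outside chromosome 19 also had a median above the median gene, at a log2 ratio of 0.56. Of these 282 genes 8 rose, 3 with TMM scaling. The 184 such genes on chromosome 19 outside the stretch had a median log2 ratio of 0.61, and 11 rose, 5 with TMM scaling. Since the ends of the stretch came from these ratios, no conclusion is drawn from the zinc finger genes inside and outside it. The stretch held genes with no common role, such as the sumoylation enzyme subunit UBA2 (11912 reads in H1299, 3491 in HBE), the elongation factor SUPT5H (5244 and 1534) and TIMM50 (4766 and 1084) of the mitochondrial import machinery. Of these UBA2 and SUPT5H, at ratios of 4.13 and 4.14, lay close to the 4-fold bound. It also held several genes described above: PLAUR, AXL, TDRD12 and the proteasome genes PSMC4 (8352 reads in H1299, 1483 in HBE) and PSMD8 (6924 and 2069). In the proteasome 3 of 31 genes rose, these 2 and PSMB1 of chromosome 6, while the list median lay on the median gene; TMM scaling no longer called PSMD8. SPINT2 and FXYD3, both of epithelia, fell within the same stretch, to 139 and 108 reads in H1299, against 8674 and 6805 in HBE. Whether the lines differ in the number of copies of this stretch was not measured in these data.

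**Figure D4:**
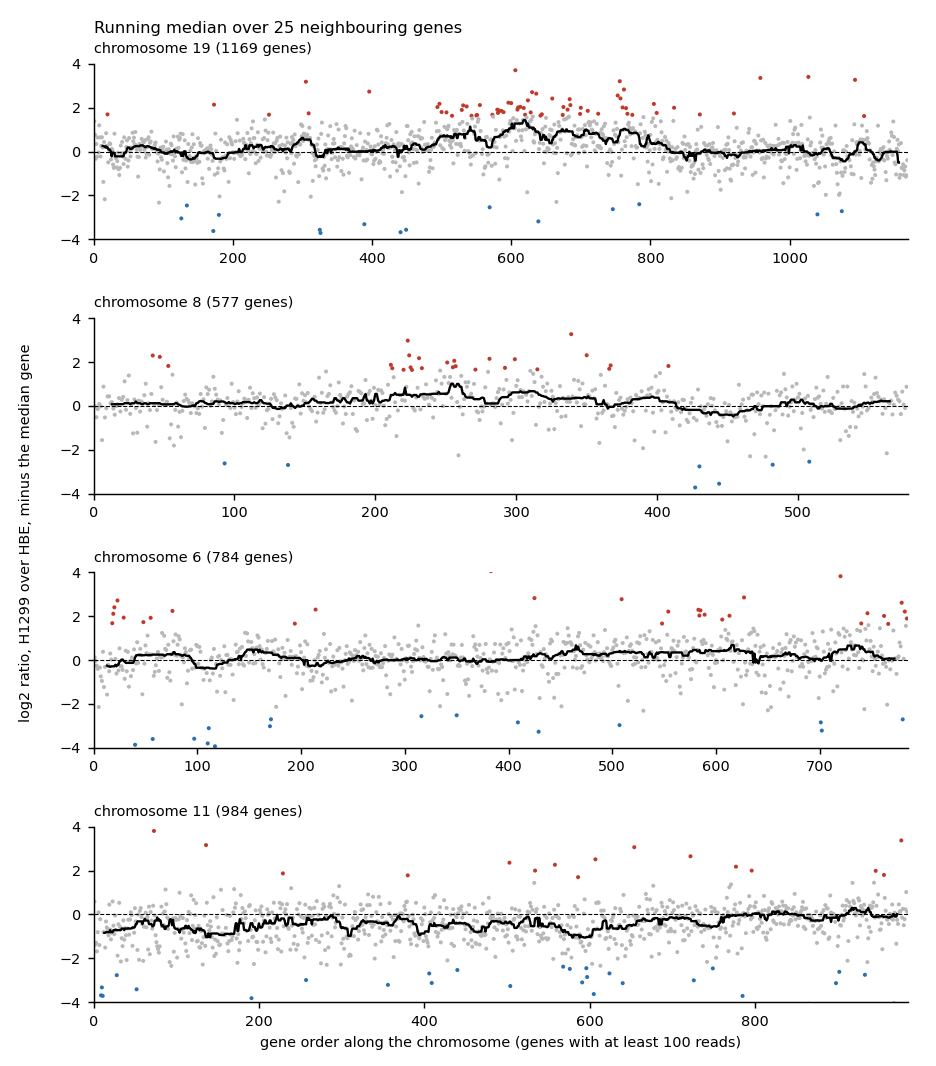
Log2 ratio, H1299 over HBE, minus the median gene, for genes with at least 100 reads in their order along chromosomes 19, 8, 6 and 11. Points are genes (red higher in H1299, blue lower, gray neither; points beyond 4 are not drawn), and the black line is the median over 25 neighbouring genes. The line rises on chromosome 19 over the stretch from NUDT19 to CEACAM19 and lies below 0 along much of chromosome 11.

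On chromosome 8 a stretch from PRKDC to RRS1 was chosen after its values had been seen. Its first end was set by hand, and it is wider than the stretch YTHDF3 to RRS1 that the running median gave. In it 13 of 56 genes (23.2%) rose and none fell, and with TMM scaling 4 were higher and 1 lower. These counts follow from the chosen ends, so this stretch is a description only. It included MCM4 and RPS20, the genes called in the replication and ribosomal protein lists, and MRPL15, the 1 mitochondrial ribosomal protein of 76 that rose; none of these 3 was called with TMM scaling. On chromosome 11 the longest stretches below the median gene were TMEM9B to CALCB and SYT12 to LRP5, with ends set from these same ratios. The first had a median 0.87 below the median gene over 39 genes, of which 1 rose and none fell. The second had a median 1.05 below it over 36 genes, of which 1 rose and 5 fell. These values follow from the chosen ends and are a description only. GSTP1 (813 reads in H1299, 6528 in HBE) and ALDH3B1 (166 and 1126) lay in the second stretch.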

How the data were processed

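The authors took ribosome footprints of the lines through rRNA depletion and a small RNA library kit, removed adapters, cut reads at the first base under Phred 10 and mapped them with FANSe2 (version: not given in the sources used here), against RefSeq RNA sequences; the submitters' processing notes name hg19. The deposited values are whole-number read counts per transcript, not normalized by the authors, and RPKM values that the authors computed from these counts and the whole transcript length. Counts were summed per gene name over 47239 transcripts; 329 of them had no name, and the RefSeq gene table of NCBI gave a name to 280 of these. The ratio is the share of NM reads in H1299 over that in HBE, with 0.5 read added for log2 values. With 1 library per line no test was run and no p-value is given. edgeR 4.0.16 (R 4.3.3) gave TMM and upper quartile factors and nothing else; Python 3.11.15, pandas 2.3.3, NumPy 2.4.6, SciPy 1.17.1 and matplotlib 3.10.9 did the rest. The code for the intervals and calls was run on simulated Poisson counts with known ratios. Amplified reads and spread between cultures were not simulated, so this run checks the code and not the intervals for these data.

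The genes named by rule were the 20 highest and 20 lowest ratios with at least 50 reads and an interval beyond 2, the 5 most read genes of 6 ratio bands, the 10 most read of each library and 5 genes that bear on the labels; of each list, members with the largest or smallest ratio or with most reads were to serve as examples. Further list members, and genes named for their position or chosen stretch, were picked after their values were seen. Members and the 53 gene lists (1266 of 1269 genes matched) were chosen with earlier results of these data known. Positions on hg19 and coding sequences come from GENCODE 44 lifted to that build, upstream windows from RefSeq on GRCh38.p14. The share of 28-base words was counted over all GENCODE protein-coding transcripts of other gene names. Genes of the Y chromosome are not named. A few listed genes are not reported here. The alternatives were TMM, upper quartile and median-gene scaling, NM reads without the 10 most read transcripts, minimums of 1 and 100 reads, NM transcripts only, the most read NM transcript, deposited names only, 5 reads added, and call rules at 2-fold and 8-fold. mRNA levels and read positions were not analysed here.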

Additional observations from a re-analysis of the deposited data

Results flagged for a closer look

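Reads on names without an NM transcript lay outside the comparison: 19.3% of all reads in H1299 and 19.96% in HBE. These names hold non-coding RNAs, ribosomal RNA included, and were not analysed here.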

How the results depend on the processing

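No paired analysis was possible because H1299 and HBE gave 1 library each and no test was run. The count of genes higher in H1299, 427, became 266 with TMM and 261 with the median gene set to 0; all 266 and 261 were among the 427, and the count of lower genes, 449, became 613 and 620. With a call at 2-fold (interval beyond 1) 2709 genes were higher and 1194 lower, and with a call at 8-fold (interval beyond 4) 131 were higher and 215 lower. The median log2 ratio over all genes, 0.38, was 0.014 with TMM, 0.21 with upper quartile factors, 0 by construction with the median gene set to 0, 0.20 without the 10 most read NM transcripts and 0.36 with a minimum of 100 reads. Other minimums, transcript choices, names and added reads left both counts within 1.5 times. Of 748 values of named genes none changed sign among called genes; 4, all of ARIH2, lost the call, and 6 gained one, CTNNB1 among them, each under another scaling. The ratio also went with depth: the median log2 ratio was 0.51 in the tenth of genes with fewest reads and 0.20 in the tenth with most, where 6.65% fell. Depth limits genes with few reads, and the spread between cultures was not measured.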
